A study of Drosophila melanogaster with 2 samples.

Results

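The genes described here are 8 stress- and infection-inducible targets of the JAK/STAT pathway of Drosophila melanogaster: the thioester-containing protein genes Tep1, Tep2, Tep3 and Tep4, the Turandot genes TotA, TotC and TotM, and vir-1. They form a named list of inducible targets, and all 8 matched a protein-coding gene among the 13945 on the 6 chromosome arms analysed. The data are positions of the transcription factor Stat92E, mapped in embryos of both sexes, pooled and collected at 0 to 12 h, by sequencing DNA recovered with the protein (ChIP-seq). The flies stably carried Stat92E with eGFP fused to its C-terminus, and per the labels an antibody against GFP was used, although another label names Stat92E as its target. There was 1 group of 2 biological replicates, numbered 1 and 3. The labels name no infection, stress or other treatment. No control sample and no second condition was analysed here, so the comparisons are with other genes and other peaks of the same lists.

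In flies, cytokines of the Unpaired family bind the receptor Domeless, the kinase Hopscotch phosphorylates Stat92E, and the factor enters the nucleus and binds paired half-sites, TTC and GAA, set 3 or 4 bases apart. Tep genes encode secreted proteins related to vertebrate complement factors and alpha-2-macroglobulin. Turandot genes encode small secreted peptides that accumulate in the haemolymph of adults after bacterial challenge, heat or other stress, and vir-1 is a marker of the response to viral infection. In adults the fat body and blood cells are the main places of these responses.

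The authors deposited 4 peak lists, and each peak has a summit and a signal score given by the authors, whose unit is not stated. The score was used only to rank peaks within a list, where rank 1 is the strongest. The lists of replicate 1, replicate 3 and both replicates pooled held 30000 peaks each. A list of 3603 peaks, thresholded by IDR (the irreproducible discovery rate) and called the reproducible list below, had the same summits and ranks as the 3603 strongest pooled peaks. A locus below is the gene span with 5 kb to either side. On dm6, Tep1 (FBgn0041183) spans 15888640 to 15893811 of 2L on the minus strand. Tep2 (FBgn0041182) spans 7693727 to 7701601 of 2L, minus strand, and Tep3 (FBgn0041181) 7702805 to 7710690, plus strand. Tep4 (FBgn0041180) lies on the plus strand of 2L at 19548507 to 19556451. TotM (FBgn0031701) is on 2L at 5329857 to 5330464, and TotA (FBgn0028396) and TotC (FBgn0044812) are on 3R at 20871036 to 20871700 and at 20872988 to 20873580, all on the plus strand. The vir-1 gene (FBgn0043841) takes up 12403270 to 12423439 of 2L on the minus strand. Start means the annotated transcription start, and minus distances lie upstream of it.

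The sequences just upstream of 5 of the genes, and of the internal start of Tep4, are shown to set STAT sites beside the presence or absence of summits. Each line gives the 250 bases before the start on the gene's own strand, 5′ to 3′, as RefSeq gives it for Release 6 (dm6). Capitals mark STAT sites, TTC and GAA with 3 bases (TTCNNNGAA) or 4 bases between them, and no annotated exon overlaps these stretches.
TotA (chr3R:20870786-20871035, plus strand): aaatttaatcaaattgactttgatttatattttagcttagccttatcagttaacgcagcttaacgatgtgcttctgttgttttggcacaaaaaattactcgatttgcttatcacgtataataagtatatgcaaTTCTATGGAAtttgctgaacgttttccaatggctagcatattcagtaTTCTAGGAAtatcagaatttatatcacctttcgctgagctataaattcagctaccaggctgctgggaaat
TotC (chr3R:20872738-20872987, plus strand): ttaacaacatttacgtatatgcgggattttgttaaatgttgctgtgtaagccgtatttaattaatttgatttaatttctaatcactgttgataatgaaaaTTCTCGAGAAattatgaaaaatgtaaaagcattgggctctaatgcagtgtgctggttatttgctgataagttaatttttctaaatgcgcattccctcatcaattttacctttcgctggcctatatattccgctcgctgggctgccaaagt
TotM (chr2L:5329607-5329856, plus strand): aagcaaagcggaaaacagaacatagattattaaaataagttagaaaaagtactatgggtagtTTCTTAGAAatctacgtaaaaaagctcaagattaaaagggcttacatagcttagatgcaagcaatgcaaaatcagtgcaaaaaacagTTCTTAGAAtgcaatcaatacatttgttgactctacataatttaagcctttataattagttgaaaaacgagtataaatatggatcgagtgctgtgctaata
Tep1 (chr2L:15893812-15894061, minus strand): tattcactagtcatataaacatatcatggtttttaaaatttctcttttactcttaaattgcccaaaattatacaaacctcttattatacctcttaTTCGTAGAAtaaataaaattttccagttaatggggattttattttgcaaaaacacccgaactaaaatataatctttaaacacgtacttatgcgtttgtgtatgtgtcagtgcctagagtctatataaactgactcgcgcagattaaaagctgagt
Tep2 (chr2L:7701602-7701851, minus strand): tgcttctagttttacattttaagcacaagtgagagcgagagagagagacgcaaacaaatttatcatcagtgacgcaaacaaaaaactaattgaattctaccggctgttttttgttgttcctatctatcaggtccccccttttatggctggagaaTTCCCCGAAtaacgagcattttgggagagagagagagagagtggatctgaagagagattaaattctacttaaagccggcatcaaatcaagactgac
Tep4 internal start (chr2L:19549443-19549692, plus strand): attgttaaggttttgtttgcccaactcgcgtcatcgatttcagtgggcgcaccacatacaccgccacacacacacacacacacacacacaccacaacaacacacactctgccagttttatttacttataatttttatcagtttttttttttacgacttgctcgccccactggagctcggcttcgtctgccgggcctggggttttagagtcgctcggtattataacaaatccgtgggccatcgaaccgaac

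In TotA the 4-base-spacer site began at −117 from the start and the 3-base-spacer site at −70. TotC held a 4-base-spacer site at −150. TotM held the same 3-base-spacer site, TTCTTAGAA, in 2 places, on 2L at 5329669 to 5329677 and at 5329756 to 5329764. Single 3-base-spacer sites lay at −155 from the Tep1 start and at −96 from the Tep2 start. The stretch before the internal start of Tep4 held none, and the summit of the 8 loci with the strongest pooled rank lay in it. The upstream stretches of TotA and TotC share an 11-base run, acctttcgctg, that begins at −45 in TotA and −44 in TotC.

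Of the 8 genes, 4 had a reproducible summit in the gene or within 5 kb, against 42.5% of all protein-coding genes. With the pooled list it was 5 of 8, against 76.6% of all genes, and with each replicate list also 5 of 8, against 75.5% (replicate 1) and 80.7% (replicate 3). Both replicates had a summit at 5 of the 8, against 74.5% of all genes, and one among their 3603 strongest at 4 of the 8, against 33.1%. The replicates need not share the summit in these counts. At vir-1, that of replicate 1 (rank 2071) was at the CG5446 start and that of replicate 3 (rank 3068) near the Fam92 start. Neither was among the 3603 strongest of the other replicate. Among the 3603 strongest of replicate 1 alone it was 5 of 8, against 42% of all genes, and of replicate 3 alone 4 of 8, against 41.7%. With 8 genes, these counts are close to the shares of all genes. Within 2 kb the counts were 4 reproducible and 5 pooled, against 30.9% and 69.6% of all genes, and within 10 kb 4 and 5, against 55.2% and 82.2%. In the gene span alone they were 2 and 2, against 11.4% and 44.7%. By nearest start they were 2 (Tep2 and Tep4) and 3 (with Tep3), against 18% and 57.2%. Tep2, Tep3, Tep4 and vir-1 had reproducible summits, TotM had weaker ones, and Tep1, TotA and TotC had none in any list. The 5 genes fell at 4 separate places, since Tep2 and Tep3 start 1204 bp apart on opposite strands and their windows hold the same summits.

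**Figure D1:**
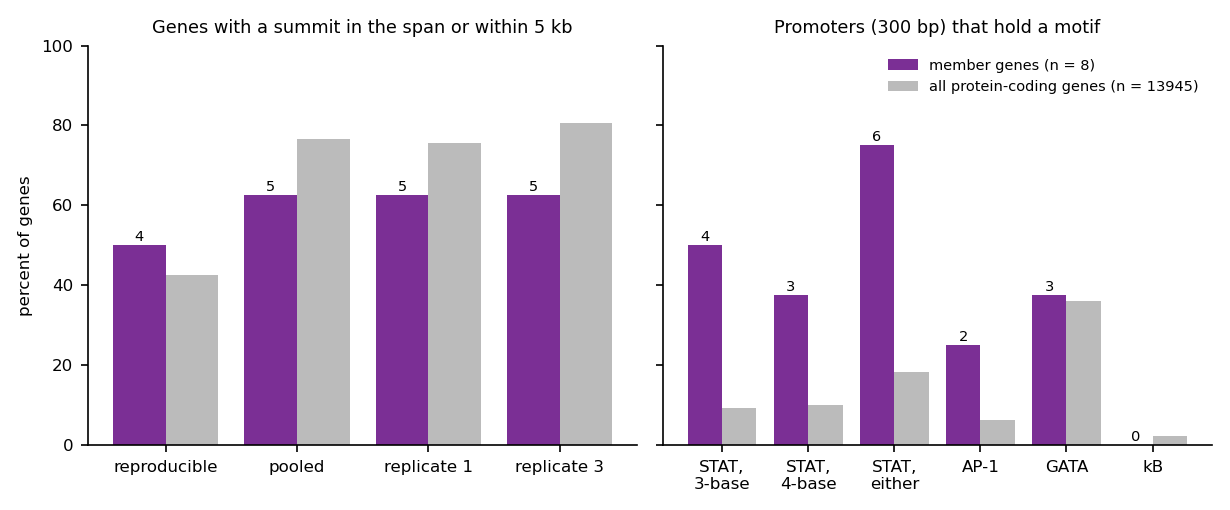
Percent of genes with a summit in the span or within 5 kb, by list (left), and percent of 300 bp promoters that hold a motif (right). Purple bars are the 8 genes, with their number above, and grey bars all 13945 protein-coding genes; the purple bars lie near the grey ones for summits, and above them for STAT sites (6 of 8 against 18.3%).

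The 4 reproducible summits of these genes all ranked in the weaker 50% of that list. The median rank of the strongest pooled summit was 2396 over the 5 genes with one and 3103 over all 10678 genes with one. Among genes with a reproducible summit, it was 2396 for the 4 members and 1510 for all 5925. Tep2 and Tep3 share the summit of rank 2396, so it counts for each of them in both member medians. The separate strongest pooled summits ranked 2140 (Tep4), 2396 (Tep2 and Tep3), 3513 (vir-1) and 4143 (TotM), on either side of 3103. The 4 reproducible summits ranked from 2140 to 3597 among 3603. Some lay close to the end of the list at rank 3603: the second Tep2 summit at 3597 and the vir-1 summit at 3513 were just inside. Just outside were a second summit near vir-1 at 3893, the strongest in the TotM locus at 4143 and the second Tep4 summit at 4259.

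**Figure D2:**
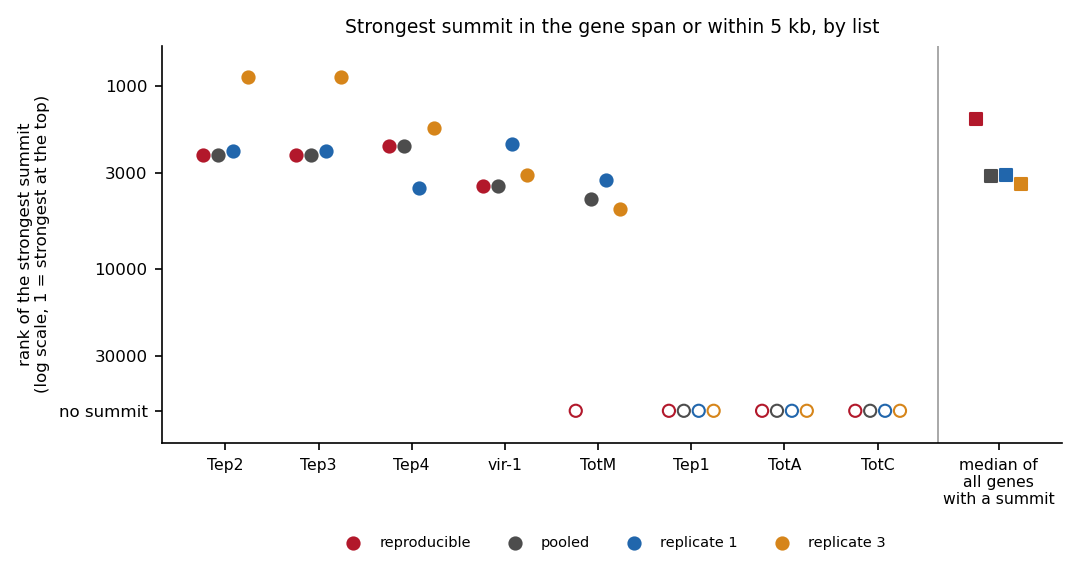
Rank of the strongest summit in the gene span or within 5 kb of each gene, in the reproducible (red), pooled (grey), replicate 1 (blue) and replicate 3 (orange) lists, on a log axis with the strongest at the top; open circles mark no summit, and squares the median of all genes with a summit. Tep2 and Tep3 share rank 897 in replicate 3, and Tep1, TotA and TotC have no summit in any list.

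Stat92E-GFP lay at the promoter of Tep2, which encodes several splice forms of a thioester protein. The strongest summit, pooled rank 2396 with a signal of 144, was 2 bp from the start, in the 5′ UTR, in a peak on 2L at 7701543 to 7701660. A second reproducible summit, rank 3597 with a signal of 121, lay at −218 from the start, in a peak at 7701584 to 7702053 that overlaps the first. Replicate 3 gave both summits, at rank 897 on the same base as the first and at rank 4803 within 1 bp of the second. Replicate 1 placed its strongest summit between them, at rank 2267 and −122, with a weak one of rank 16462 at −323. Both replicates thus had a summit at this promoter. Their strongest ones were 124 bp apart, and that of replicate 1 was 96 bp from the second pooled summit.

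The 3-base-spacer site of the Tep2 promoter, on 2L at 7701689 to 7701697, lay between the positions the replicates gave. Its centre was 30 bp from the replicate 1 summit and 94 bp from the replicate 3 and pooled summits. It was the only 3- or 4-base-spacer site of all 8 loci inside a reproducible peak. A further 3-base-spacer site, at 7702141 to 7702149 between the genes, was 326 bp from the nearest pooled summit.

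Tep3, the divergent neighbour of Tep2, had a summit of its own at its start, outside the reproducible list. It lay at −31 from the Tep3 start at pooled rank 6988, with a signal of 84.8 and a −log10 q-value of 3.03. Both replicates had it on the same base, at −10. Its rank was 6896 in replicate 3 and 10556 in replicate 1. The reproducible summits counted for Tep3 were those of the Tep2 promoter, at −986 and −1206 from the Tep3 start. A 3-base-spacer site at 7702852 to 7702860, 61 bp from both replicate summits, begins 47 bp inside the 5′ UTR of Tep3, and a 4-base-spacer site begins at −192.

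The Tep2 and Tep3 summits stood alone. The nearest pooled summits outside the loci were 51.8 kb from Tep2 on one side and 72.3 kb from Tep3 on the other, and the replicate lists gave the same picture (51.7 to 52.1 kb and 72.3 to 72.4 kb). The 3 pooled summits around these 2 starts were thus the only ones in 141 kb. Of the 3601 reproducible summits on the arms, 9 (0.25%) had no other pooled summit between 2 and 50 kb away. Both Tep2 summits were among them, but the limits were set after seeing this locus, so their inclusion was fixed beforehand. They lie in overlapping peaks and were counted separately among the 9. The share is therefore no measure of how rare such a place is. For comparison, gaps of at least 40.1 kb between neighbouring pooled summits make up 33.5% of the arm length.

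In Tep4, a gene known as a JAK/STAT readout in the blood-forming lymph gland, the strongest summit lay at an internal start. It had pooled rank 2140, the strongest of the 8 loci in the pooled and reproducible lists but not in either replicate list, with a signal of 150.3, in a peak on 2L at 19549405 to 19549874. From the first start of the gene it was 1133 bp downstream, in an intron, but it was at −53 from the second start, at 19549693, which transcripts Tep4-RA and Tep4-RC use. Replicate 3 had it at −65 from that start with rank 1693, and replicate 1 at −5 with rank 3600. A second summit, 148 bp inside that start, ranked 4259 in the pooled list, 2683 in replicate 3 and 10049 in replicate 1. At the first start, used by Tep4-RB and Tep4-RD, only weak summits were found: pooled rank 21055 at −269, and ranks 11056 and 10998 in replicate 3 at −311 and −94. The nearest STAT site to the strongest Tep4 summit was a 4-base-spacer site 465.5 bp away.

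For vir-1, the summits lay at the starts of neighbouring genes. The reproducible one, rank 3513 with a signal of 122, on 2L at 12424485 to 12424954, was at −1281 from the outermost vir-1 start and 184 bp from the start of Fam92, which is transcribed the other way. Replicate 1 had it at rank 4945 and replicate 3 at rank 3068. A second pair at pooled ranks 3893 and 8420 lay at −4252 and −4519 from that start, 18 bp from the start of CG5446 and 70 bp from that of Trm1. The replicates differed in the first of this pair, which had rank 2071 in replicate 1 and 11155 in replicate 3. Inside the 20170 bp of vir-1, which has 4 annotated starts, there was no pooled or replicate 3 summit. One of rank 26796 in replicate 1 lay at −190 from the start at 12421862, with a −log10 q-value of 0.401. The locus held 26 STAT sites, 2 of them the full palindrome TTCCNGGAA, and the nearest to any pooled summit was 545 bp away.

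The 7 pooled summits of the TotM locus were all upstream of TotM, and each was nearer to the start of another gene. Their −log10 q-values ran from 0.513 to 3.62. The strongest summit, rank 4143 with a signal of 113, lay at −3294 from the TotM start, in the 5′ UTR of Ncoa6, a nuclear receptor coactivator gene. Replicate 1 gave it rank 3266 and replicate 3 rank 4705. In replicate 1 its summit was 10 bp from the centre of a 3-base-spacer site at 5326662 to 5326670, and in the pooled and replicate 3 lists it was 103 and 110 bp away. The summit nearest to TotM, at −824, had pooled rank 15768 with a −log10 q-value of 1.04 and lay 154 bp from the start of CG14022. Replicate 1 had it at rank 13424, and the nearest summit of replicate 3 was at −2411 with rank 8631. The TTCTTAGAA sites of the TotM promoter were 640 and 727 bp from the nearest pooled summit.

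Tep1, TotA and TotC had no summit within 5 kb in the reproducible, pooled and both replicate lists, which held for 18.1% of all protein-coding genes and for 35.3% of the 2678 genes with a span of at most 1 kb. Of those short genes, 26.6% had a reproducible and 57.7% a pooled summit. The 3 Turandot genes span 593 bp (TotC), 608 bp (TotM) and 665 bp (TotA). The nearest pooled summit to Tep1 was 15.2 kb upstream at rank 576, and on the other side the next was 124 kb away. This left 145 kb with no pooled summit, and in replicate 3 it was 141 kb. Only 73 of 29992 stretches between neighbouring pooled summits were at least as long, and these make up 12.7% of the arm length. TotA and TotC lie together on 3R, 1952 bp from start to start, in a stretch of 40.1 kb with no summit in the pooled and replicate 1 lists and 29.6 kb in replicate 3. Stretches of at least that length make up 33.5% of the arms.

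**Figure D3:**
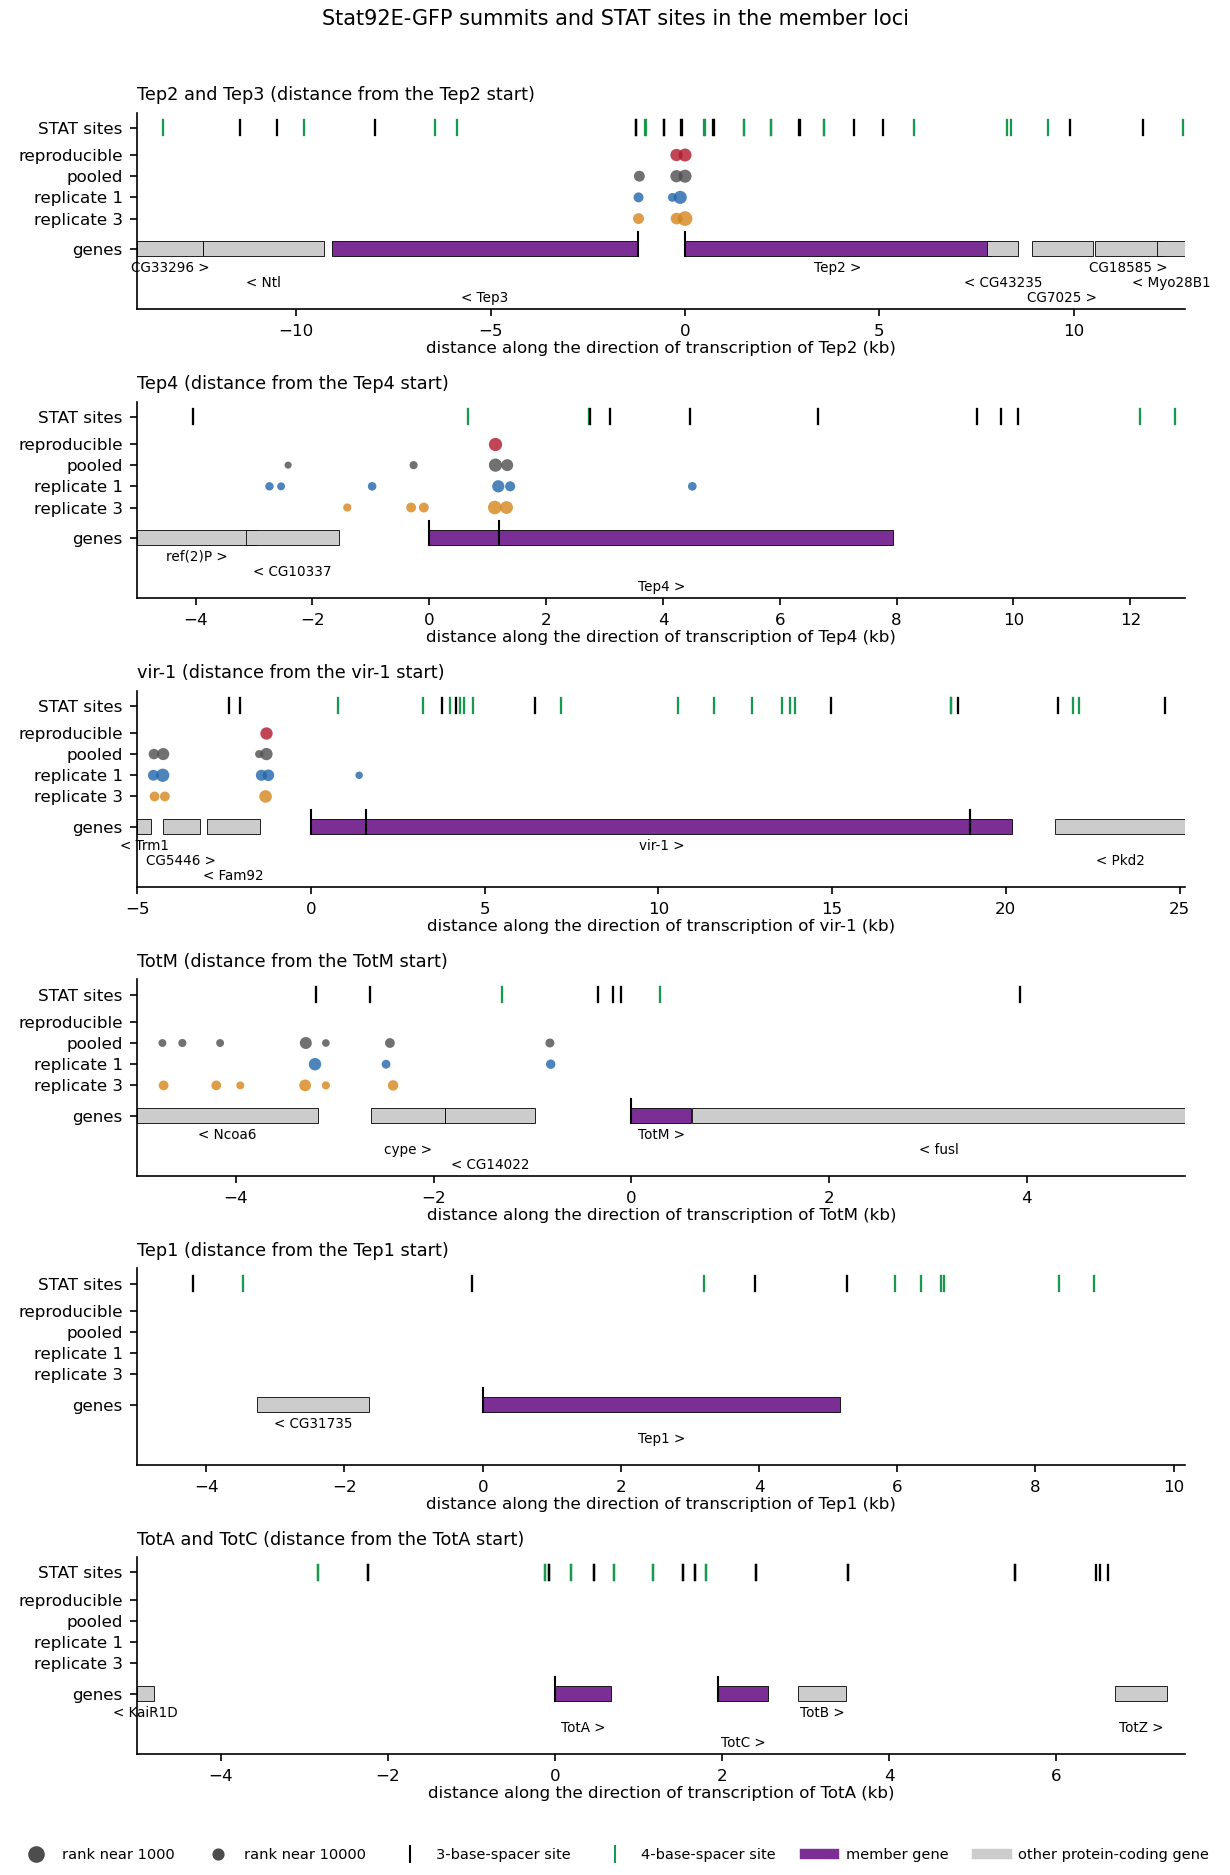
Summits of the 4 lists (dots, larger for stronger ranks), STAT sites (ticks; black with a 3-base and green with a 4-base spacer) and protein-coding genes (purple, the 8 genes; grey, others; > and < beside a name give its direction; black upright lines, starts) against distance from the named gene's start in kb. The dots gather at the starts of Tep2 and Tep3, at the internal start of Tep4 and at neighbours of vir-1 and TotM, while the Tep1 panel and the TotA and TotC panel hold ticks and no dots.

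Promoters of the 8 genes often held a STAT site. A promoter here is the 300 bp from 250 before to 50 after the outermost start, which for Tep4 is not the internal start. Of the 8, 6 held a 3- or 4-base-spacer site (TotA, TotC, TotM, Tep1, Tep2 and Tep3), against 18.3% of all protein-coding promoters. The 3-base-spacer site alone was in 4, against 9.23%, and the 4-base-spacer site in 3, against 9.92%. Full palindromes were in 0 of 8, against 0.423%. Both patterns match equally on either strand. The sites are matches of letters, and 5 of the 6 promoters with a site were below the median GC content: it was 31.7 to 36.7% in TotM, Tep1, TotC, TotA and Tep3, 42.7% in Tep2 and Tep4 and 39% in vir-1, against a median of 38% over all promoters. Its part in the count was not tested.

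Motifs of other stress and immune factors were also counted in these promoters. The AP-1 element TGANTCA was in 2 of 8 (Tep2, and Tep4 at its first start), against 6.18% of all promoters. A GATA element, AGATAA or TGATAA on either strand, was in 3 (TotA, TotC and Tep2), against 36.1%. The Rel family kB consensus was in 0, against 2.29%.

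The distances between STAT sites and summits were then read in both directions. The 8 loci held 50 distinct 3-base-spacer and 51 distinct 4-base-spacer sites, of which 0 lay within 50 bp of a pooled summit, 3 within 100 bp and 85 more than 1 kb away. From the side of the summits, 0 of the 4 reproducible ones held a site within 50 bp, against 14.8% of all 3601 on the arms, and 0 of the 18 pooled ones, against 8.53% of 29998. Within 200 bp the counts were 2 of 4, against 34.1%, and 5 of 18, against 26.2%. In replicate 1 alone, 3 of 17 summits held a site within 50 bp, against 8.33% of all, and in replicate 3 alone 0 of 17, against 8.35%. The replicate 1 summits with a site were at the Tep2 promoter, in the 5′ UTR of Ncoa6 and in the coding sequence of Tep4, where the peak was weak (rank 17556). With so few summits, these counts do not set the loci apart from all summits.

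**Figure D4:**
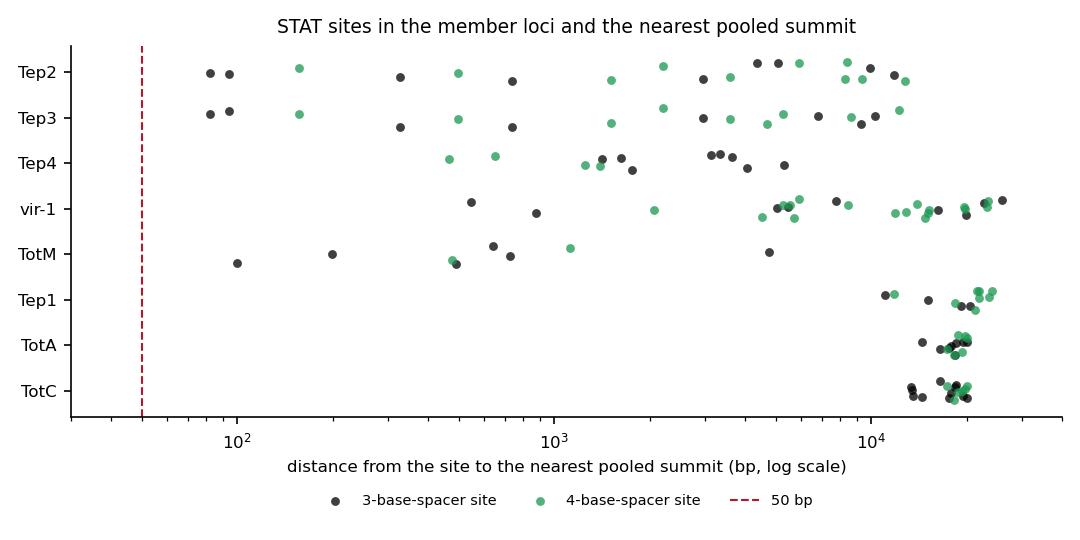
Distance from each STAT site of the 8 loci to the nearest pooled summit, in bp on a log axis, by gene; black dots have a 3-base spacer, green dots a 4-base spacer, and the dashed line is at 50 bp. No dot lies left of the line, and all sites of Tep1, TotA and TotC are more than 10 kb from a summit.

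All 8 loci had more STAT sites per kb than the median locus. TotC had 1.6 sites per kb and TotA 1.31, followed by Tep2 with 1.06, Tep3 with 0.95, vir-1 with 0.862, Tep1 with 0.791, TotM with 0.754 and Tep4 with 0.669. Over all protein-coding loci the median was 0.62 per kb, and the middle 50% ran from 0.467 to 0.774. The TotA and TotC loci overlap, as do those of Tep2 and Tep3, so these values share sites. The TotA and TotC loci, the densest in sites, had no summit.

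Other genes of the same responses are given for comparison by the same rule. Of 13 JAK/STAT components, 11 had a reproducible summit and their median strongest pooled rank was 1337, led by dome (rank 4), Socs36E (13) and Stat92E (16). Their promoters held a 3- or 4-base-spacer site in 3 of 13. Antimicrobial peptide genes, induced through the Toll and Imd pathways, had a reproducible summit at 8 of 14, with AttA and AttB sharing one and CecA1, CecA2 and CecB another, and a promoter site at 2 of 14. Of 14 Toll and Imd signalling genes, 7 had a reproducible summit and 3 a promoter site. Of 8 genes of the stress kinase pathways, 7 had a reproducible summit, led by Mekk1 (rank 795), a kinase of the stress response, and 0 a promoter site. By nearest start, a reproducible summit belonged to 8 of 13 JAK/STAT components and only 1 of 14 antimicrobial peptide genes. It belonged to 4 of 14 Toll and Imd signalling genes and 5 of 8 stress kinase genes. The window is longer for longer genes, and the lists were not matched for gene length. The share of all genes was 42.5% for a reproducible summit, 18% by nearest start and 18.3% for a promoter site. Differences between the lists were not tested.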

How the data were processed

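Stat92E-GFP ChIP-seq of 0 to 12 h embryos was analysed from 4 deposited peak lists on dm6, with chromatin sonicated to fragments of 200 to 800 bp, per the labels. Per the deposited file lists, each replicate list was called against a control shared by both, the pooled list came from both replicates, and the IDR list from the other 3. The sources used here name no aligner or peak caller, nor settings or the threshold on IDR. The deposited signal score has no stated unit, and the deposited −log10 q-value is 3.62 throughout the IDR list. It goes down to 0.396 in the pooled list, 0.331 in replicate 1 and 0.447 in replicate 3, so those lists include weak calls. Read depth is unknown.

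Summits (start plus offset, written 1-based) were counted in each gene span and 5 kb to either side, with gene models of Ensembl BDGP6.54.115 and sequence of the RefSeq copy of Release 6. Every peak ended inside its chromosome. The 2 peaks of the IDR list off the arms were left out of arm totals. Motifs were searched on both strands within 50 bp to either side of summits and in 300 bp promoters. The kB consensus is the Rel family one. Python 3.11.15, pandas 2.3.3 and numpy 2.4.6 were used, and window, rank, nearest-start and motif counts were checked on simulated data. No test was made: with 1 group there is nothing to compare it with, and values are set beside all protein-coding genes. Named were the 8 genes, genes whose start is nearest to a described summit or whose span holds it, and leading genes of the JAK/STAT and stress kinase lists. Antimicrobial peptide genes that share a summit, the other Turandot genes and the thioester relatives were named as well. Alternatives changed the window, the gene assignment, the number of peaks, the site window and the replicates. The genes and lists were chosen with earlier results of these data known. Tep5, listed as a relative, matched no protein-coding symbol.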

Additional observations from a re-analysis of the deposited data

How the results depend on the processing

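The number of genes with a reproducible summit was 4 with 2 kb and with 10 kb around the gene, and 5 with as many as 7206 pooled peaks. It was 2 with the gene span only and 2 with the nearest start, where Tep3 and vir-1 drop out, and 0 with the stronger 50% of the list. One replicate at a time gave 4 to 5. The count with a pooled summit stayed at 5 with 2 kb, with 10 kb, with the stronger 15000 peaks and with one replicate at a time, and was 2 with the gene span only and 3 with the nearest start. With a summit in both replicates it was 4 with 2 kb, 5 with 10 kb, 1 with the gene span only and 3 with the nearest start. Among the strongest peaks of both replicates it was 0 with 1801 peaks and 5 with 7206. For shorter or longer lists, and for both replicates with another window or the nearest start, no share of all genes was counted. A shorter list can only keep or lower such a share. The counts under those settings, with the drops to 0, therefore do not set these genes apart from all genes. Of the 18 pooled summits, 2 had a STAT site within 100 bp, 5 within 200 bp and 5 in the whole peak. The shares of all pooled summits were 15.5%, 26.2% and 29.1%. With one replicate, 0 to 3 summits had a site within 50 bp. Reproducible ones numbered 1, 2 and 1, and 0 to 2 with one replicate. The median strongest rank was 1693 in replicate 3 and 2267 in replicate 1, against 3456 and 3080 over all genes with a summit there. In both, the summit shared by Tep2 and Tep3 counts for each of them. The vir-1 rank in replicate 1 is that of the summit at the CG5446 start. STAT sites in the loci numbered 76 with 2 kb and 45 in the gene spans, a smaller stretch. Within 2 kb the strongest TotM summit had rank 15768. No paired analysis was possible because there was 1 group. The cause of the other changes was not tested. Peak lists hold no read counts, so a gene without a summit shows only that no peak was listed there.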

Other observations

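The other Turandot genes and a thioester relative were read by the same rule. TotB and TotZ, which lie beside TotA and TotC on 3R, had no summit within 5 kb in any list, and TotX had one in replicate 3 alone, at rank 10693. TotE and TotF, on 2L, had 7 pooled summits each within 5 kb, the strongest at rank 14347 for TotE and 15421 for TotF. Of these 5 genes, 0 had a reproducible summit, against 42.5% of all genes and 26.6% of genes with a span of at most 1 kb. Their promoters held 3-base-spacer STAT sites in TotZ (3 sites), TotE and TotX, against 9.23% of all promoters. Mcr, a macroglobulin-related gene known for its part in septate junctions, had 2 reproducible summits, the stronger at rank 1031, with rank 1448 in replicate 1 and 1237 in replicate 3.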
